A study of Homo sapiens with 12 samples.

Results

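A375 is an established human melanoma cell line derived from a malignant melanoma of the skin. RNA was sequenced from 12 samples of it, in 4 groups of 3: wild-type cells or cells with a knockout of MAPKAPK2, each kept for 48 h with the BET bromodomain inhibitor JQ1 at 500 nM or with DMSO, the solvent. The baseline described here is the 3 wild-type samples kept with DMSO, 3 of the 12, picked out by genotype and treatment. No measured value entered that rule, but earlier results of these data were known when this part and the gene lists were chosen. Their titles read untreated while their treatment field reads DMSO, and DMSO was followed. All were grown in serum-containing medium, so the baseline is that of a line in culture with DMSO, and the sources do not say whether the 3 came from separate cultures or passages. Apart from the level of MAPKAPK2, which is also given for knockout libraries, nothing is compared between groups, and no test was run. Spreads are SDs over these 3 libraries and may be technical.

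Melanoma cells descend from melanocytes, the pigment cells that arise in the embryo from the neural crest. The transcription factors SOX10, PAX3 and MITF specify that lineage, and MITF with SOX10 drives the enzymes and structural proteins of the melanosome, the organelle in which melanin is made. Melanoma lines are commonly placed along a range of states, from pigmented cells with much MITF, through neural crest-like cells, to undifferentiated and invasive cells marked by AXL and mesenchymal genes. A375 carries an activating BRAF mutation and is used widely as a model of mitogen-activated protein kinase (MAPK) signalling.

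The 3 libraries held 31616353, 26559043 and 34594295 estimated counts. A gene's level in a library is given as counts per 1000000 of that library's total (CPM), which rises with transcript length. Levels of different genes were set against each other per length, as counts per kilobase of the longest annotated transcript scaled to 1000000 over protein-coding genes (TPM). Orders by counts and medians in CPM are given as such and carry transcript length. That choice of length matters: of 312 listed genes at 1 CPM or more, 87 stood more than 1.5 times higher and 114 more than 1.5 times lower when the median transcript length was used instead. A count of 3 over the 3 libraries, taken as the floor, equals 0.0323 CPM. The targeted gene of the series, MAPKAPK2, lay between 93.5 and 96.8 CPM in these libraries and between 11.3 and 13.5 CPM in the knockout libraries with DMSO. The libraries agreed closely, with Pearson's r of 0.997 for each pair, on log2(CPM + 1) across expressed protein-coding genes, which are not independent replicates.

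Of the 56609 gene symbols in the table, 15185 had at least 1 CPM in all 3 libraries, the rule used here for an expressed gene, and 18177 had no count in any. Protein-coding genes made up 12439 of the expressed symbols, which was 63.2% of the 19687 protein-coding symbols, and 2410 of them had no count. Protein-coding genes took 85.3% ± 0.118 of the counts, structured noncoding RNAs 10.6% ± 0.175, long noncoding RNAs 3.11% ± 0.0457 and pseudogenes 0.629% ± 0.0168. Only 130 of 5229 symbols of structured RNAs were expressed, so their share came from a few genes. The expressed protein-coding genes were spread over a wide range of counts. By mean level, 3445 protein-coding genes lay from 1 to under 10 CPM, 7378 from 10 to under 100, 1831 from 100 to under 1000, and 76 at 1000 CPM or above.

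**Figure D1:**
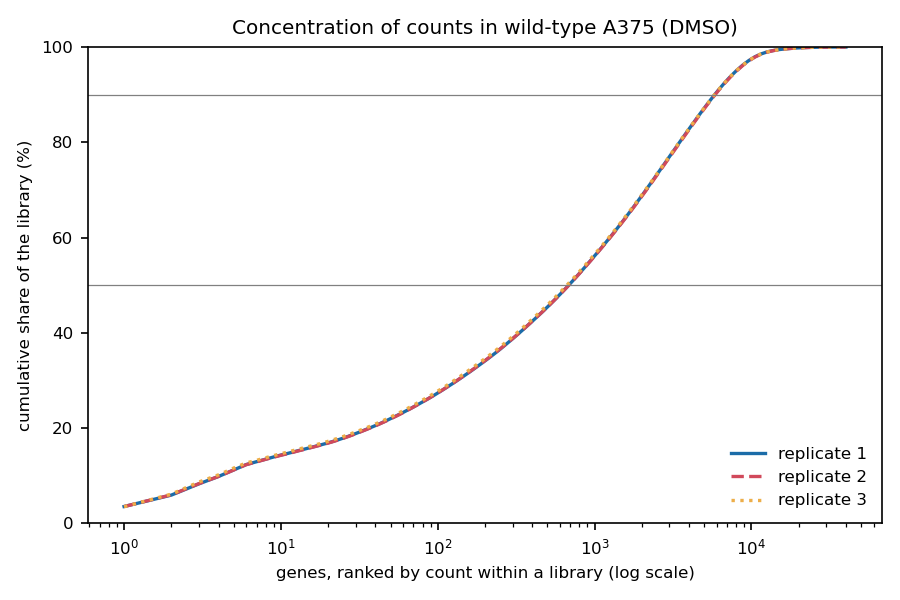
Cumulative share of the counts (%, vertical axis) against the number of genes ranked by count within each library (log scale, horizontal axis), 1 line for each of the 3 libraries, with horizontal lines at 50% and 90%. The lines lie on each other: 50% of the counts lay in 666 to 685 genes and 90% in 5811 to 5864 genes.

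The single gene with the most counts was RN7SK, the 7SK small nuclear RNA that holds the elongation factor P-TEFb in an inactive complex, at 35381, 35267 and 34972 CPM. RN7SL1 and RN7SL2, which encode the RNA scaffold of the signal recognition particle, came next, followed by the nuclear long noncoding RNA MALAT1 at 15488, 15073 and 15008 CPM. RMRP, the RNA of the RNase MRP ribonucleoprotein, had 11225, 11130.4 and 10728 CPM, and RPPH1, the RNA of RNase P, had 5252, 5312 and 5407 CPM. The 10 genes with the most counts held 14.3% to 14.6% of a library and the first 100 held 27.4% to 27.8%. RN7SK, RN7SL1, RN7SL2 and RMRP alone held 9.54% ± 0.185. Rows for ribosomal RNA were nearly empty, at 0.000121% of the counts for the nuclear genes and 0.000466% for the mitochondrial ones, in libraries from RNA depleted of ribosomal RNA.

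RN7SL1 had 23965, 24646 and 25442 CPM and RN7SL2 had 23621, 23531 and 26434 CPM, so their ranges overlapped. These genes are near-identical copies of one another, so the division of reads between them is uncertain. How the estimate divided them is not given in the sources used here. The same limit touches other rows. Among expressed symbols, 30 in 12 sets shared all 3 counts with another symbol, among them RNU1-1 and 6 other U1 small nuclear RNA symbols at 109 ± 13.5 CPM each, and the histone genes HIST2H3A and HIST2H3C at 647 ± 31.7 CPM each. The table also had rows under names that matched no annotated symbol, among them 7SK at 258 ± 70.8 CPM and Telomerase-vert at 101 ± 4.39 CPM, and which loci these rows hold is not given in the sources used here. TERC, the telomerase RNA, had 12.02 ± 1.195 CPM.

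Among protein-coding genes, EEF1A1, the translation elongation factor that brings aminoacyl-tRNA to the ribosome, had the most counts at 13702, 13569 and 14263 CPM. MT-CO1, a subunit of cytochrome c oxidase encoded in the mitochondrial genome, followed at 6124, 6004 and 5538 CPM. The third was SERPINE2, a secreted inhibitor of thrombin and other serine proteases also known as protease nexin, at 4719, 4456 and 4543 CPM. It was the only one of the 6 leading protein-coding genes by counts that does not encode a translation, respiratory or glycolytic protein. The glycolytic enzymes GAPDH and ENO1 had 3946 ± 42.03 and 3146 ± 103 CPM, and the intermediate filament gene VIM, which marks mesenchymal cells, had 2608 ± 20.4 CPM. Also among the 30 genes with the most counts were PRKDC, the DNA-dependent protein kinase, at 1978 ± 33.3 CPM, the kinase-anchoring protein gene AKAP12 at 1958 ± 45.2 CPM and the sulfate transporter gene SLC26A2 at 1926 ± 30.4 CPM. Per length PRKDC, AKAP12, SLC26A2 and SERPINE2 ranked 278, 189, 185 and 58 among protein-coding genes.

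**Figure D2:**
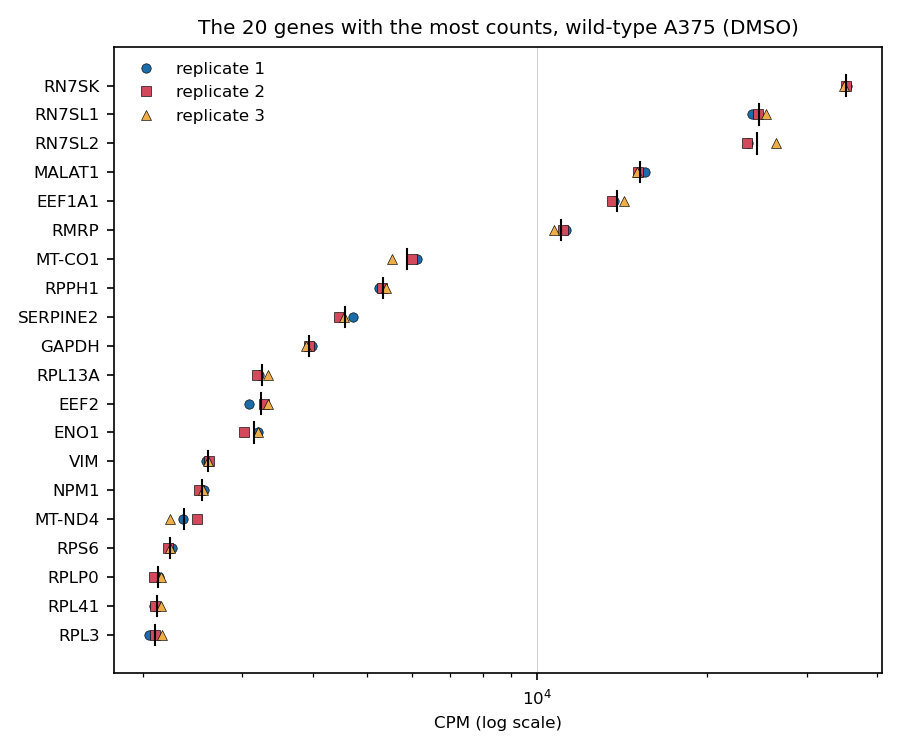
The 20 genes with the most counts, as CPM on a log scale (horizontal axis), with 1 symbol for each of the 3 libraries and a vertical bar at their mean. RN7SK sits alone at the top at about 35206 CPM, RN7SL1 and RN7SL2 overlap, and SERPINE2 stands among housekeeping genes.

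Per length the order changed, with short and mitochondrial mRNAs nearer the top. MT-CO1 led at 12165 ± 678 TPM, then EEF1A1 at 9929.6 ± 244 and RPL41, a very short ribosomal protein mRNA, at 9664 ± 131 TPM. The 15 highest protein-coding genes per length were MT-CO1, EEF1A1, RPL41, MT-CO3, MT-CO2, MT-ATP6, GAPDH, RPS27, MT-ND4, HIST1H4J, MT-ATP8, RPS6, HIST1H3B, RPL26 and RPL29. All are genes of respiration, translation, glycolysis or chromatin. The 13 mitochondrial mRNAs took 1.90% ± 0.0898 of the counts, all 13 expressed, and the 86 symbols of cytosolic ribosomal proteins took 7.09% ± 0.146, 82 of them expressed. Histone genes took 1.79% ± 0.0353, with 62 of 71 symbols expressed. They were led in CPM by HIST2H4A at 1470.1 ± 22.4, the linker histone gene HIST1H1D at 893 ± 13.5 and HIST1H1E at 752 ± 30.7. The row HIST2H4B had 3.40 ± 0.819 CPM, and how reads were divided between it and HIST2H4A was not tested. Most replication-dependent histone mRNAs lack a poly(A) tail, and per the labels' protocols these libraries were made from RNA depleted of ribosomal RNA.

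MALAT1 had the most counts of the long noncoding RNAs. The others given here are from a fixed list of 18, which does not hold every abundant one. NORAD, a cytoplasmic RNA that binds Pumilio proteins, had 512, 540.3 and 517 CPM, the paraspeckle scaffold NEAT1 had 299, 292 and 283 CPM, and the snoRNA host GAS5 had 276, 276 and 275 CPM. KCNQ1OT1, an antisense RNA of an imprinted region, had 194 ± 11.1 CPM. SAMMSON, a long noncoding RNA that lies near MITF and is known as a marker of the melanocyte lineage, had only 2.63, 1.83 and 1.37 CPM, with replicate 1 the highest. HOTAIR was at 1.14 ± 0.231 CPM and MEG3 had no count in any library. Of the 18 listed, 15 were expressed (83.3%, beside 12.7% of all long noncoding RNA symbols).

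The commonly used reference genes served as a check on the spread. All 14 were expressed. GAPDH had 3986, 3951 and 3902 CPM, ACTB had 1135, 1208 and 1199 CPM and TBP, a low reference gene, had 13.3, 16.3 and 13.7 CPM. B2M, the light chain of class I antigen-presenting complexes, stood apart, with 67.01, 102 and 110.2 CPM: replicate 1 lay well below the others. Over all expressed protein-coding genes the median coefficient of variation was 4.62%, 10354 of 12439 were under 10%, and 7 were at 50% or more. It was 10.1% from 1 to under 10 CPM, 4.23% from 10 to under 100 and 2.56% at 100 CPM or more. The widest spread among genes of at least 10 CPM was that of PSMA5, a proteasome subunit, at 21.9, 5.896 and 18.7 CPM.

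The lineage transcription factors were present, at very unequal levels. SOX10 stood far above the rest at 454, 469.9 and 463 CPM, which was 512 ± 7.31 TPM. TFAP2B, a neural crest factor of the AP-2 family, had 249.9, 241 and 235 CPM, or 134 ± 4.499 TPM, and TFAP2A, the family member usual in melanocytes, had 5.87, 6.47 and 7.02 CPM. MITF, the master regulator of the melanocyte, had 45.6, 44.8 and 46.4 CPM, and PAX3, which acts upstream of MITF, had 18.9, 21.3 and 21.8 CPM. Per length, SOX10 was 16.96 ± 0.499 times MITF and TFAP2B was 25.1 ± 2.998 times TFAP2A. The latter ratio was 45.9 with the median transcript length. Of the 11 factors listed, 9 were expressed (81.8%), beside 63.2% of all protein-coding symbols.

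The order per length was SOX10, TFAP2B, LEF1 at 39.2 ± 3.53, MITF at 30.2 ± 0.511, PAX3 at 20.7 ± 1.46, FOXD3 at 16.9 ± 0.937, SOX2 at 9.26 ± 0.685, TFAP2A at 5.37 ± 0.457 and SNAI2 at 3.13 ± 0.224 TPM. None of these neighbours overlapped over the 3 libraries. With the median transcript length TFAP2B was 324, TFAP2A 7.099, FOXD3 5.93, SOX2 3.24 and SNAI2 1.397 TPM. LEF1, a nuclear partner of beta-catenin, had 41.3, 47.2 and 39.9 CPM, with replicate 2 the highest. FOXD3 and SOX2, factors of the early neural crest and of stem-like cells, had 10.3, 11.5 and 11.5 CPM and 7.53, 7.68 and 6.71 CPM. SOX9, whose level is often opposed to that of SOX10 in melanoma, had 0.696, 0.489 and 0.5203 CPM and did not reach the threshold. IRF4, a melanocyte and lymphocyte factor, had 0.0635, 0.121 and 0.204 CPM, that is 2.01, 3.20 and 7.04 counts.

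In contrast to the factors, the genes that make melanin were close to silent. TYR, tyrosinase, the rate-limiting enzyme of melanin synthesis, had 0.0813, 0.0810 and 0.0962 CPM, from 2.57, 2.15 and 3.33 counts. Its relatives TYRP1 and DCT had 0.158, 0.0377 and 0.2002 CPM and 0.158, 0.253 and 0.318 CPM. PMEL, which forms the fibrils of the melanosome, had 0.6397, 0.287 and 0.691 CPM, and MLANA, the melanoma antigen also known as MART-1, had 0.721, 0.692 and 1.08 CPM. These values lie at the edge of what the depth can show, a handful of counts per library for TYR, TYRP1 and DCT and 7.63 to 37.4 for PMEL and MLANA. In bulk libraries such as these, fewer cells with a transcript and less of it per cell cannot be told apart. The melanosome transporters SLC45A2 and SLC24A5 had 0.228 ± 0.0695 and 0.0723 ± 0.0945 CPM, the ocular albinism receptor GPR143 had 0.371 ± 0.167 CPM and the MITF target TRPM1 had 0.229 ± 0.0915 CPM.

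Other members of the pigment list were expressed, from 1.45 CPM for OCA2 upwards. CD63, a tetraspanin of late endosomes, had 241, 237 and 251 CPM. GPNMB, a glycoprotein of melanosomes and lysosomes, had 90.6, 90.3 and 93.3 CPM, and MYO5A, the motor that carries melanosomes, had 126 ± 7.44 CPM. RAB38 and RAB32, small GTPases that sort cargo to melanosomes, had 34.9, 33.5 and 33.8 CPM and 10.9, 11.2 and 11.01 CPM. MC1R, the melanocortin receptor of melanocytes, had 13.1, 15.5 and 14.8 CPM, and OCA2, a melanosome membrane protein, had 1.52, 1.24 and 1.59 CPM. Beside an expressed share of 63.2% over all protein-coding symbols, 11 of the 22 genes were expressed and 11 were not. None of the 22 genes was at 0 in all 3 libraries. Their median was 1.18 CPM, against 7.78 CPM over all protein-coding genes.

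The plots of state genes show this split as a gap of several powers of 10 between SOX10 and the pigment enzymes.

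**Figure D3:**
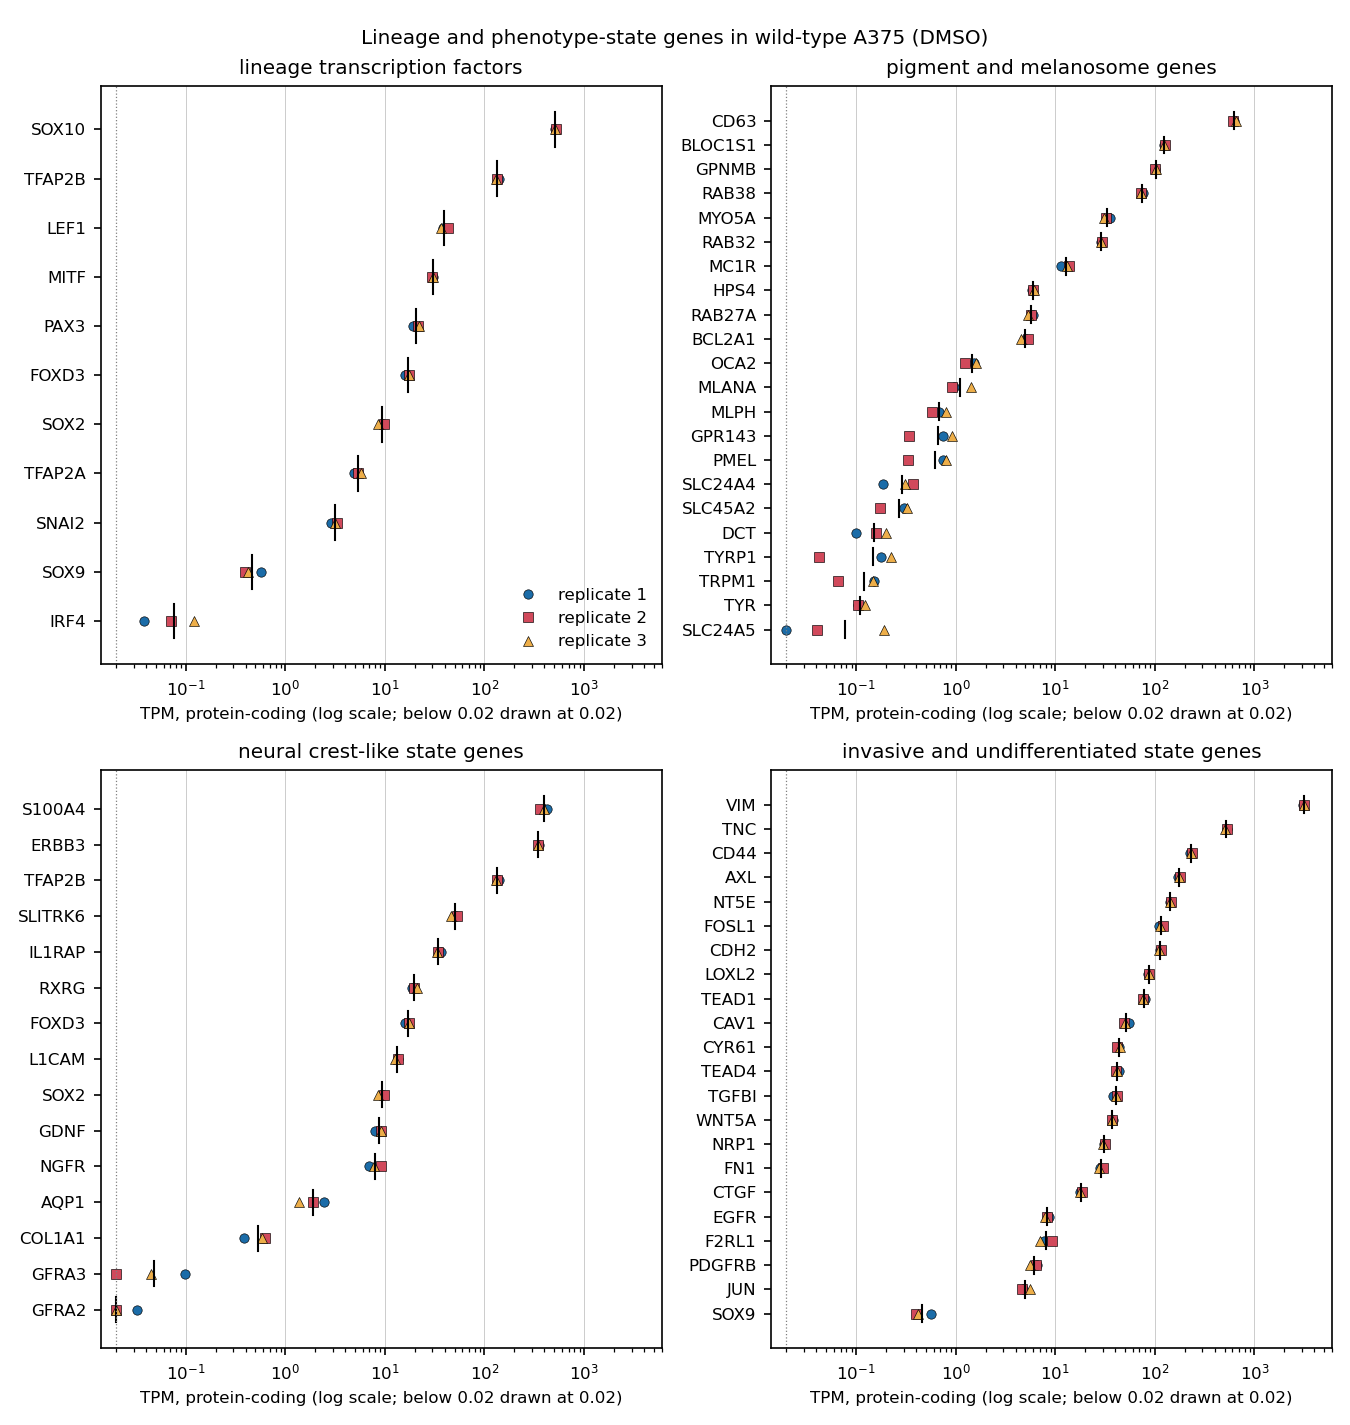
TPM (log scale, horizontal axes) of genes of 4 lists in the 3 libraries, 1 symbol each, with a vertical bar at the mean; values under 0.02 are drawn at 0.02. SOX10 lies at 512 TPM while TYR, TYRP1 and DCT lie at 0.1105, 0.147 and 0.153 TPM, and most invasive-state genes lie between 10 and 1000 TPM.

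The promoters of a pair of near-silent and a pair of expressed pigment genes are shown because MITF binds E-boxes, the letters CACGTG or CATGTG. Each run is 250 bases before to 50 bases after the gene's start, from RefSeq on GRCh38.p14, written 5′ to 3′ on the gene's own strand, which is plus for all 4, with E-box letters of either strand in capitals (CATGTG reads CACATG from the other strand). TYR is at chr11:89177625-89177924, TYRP1 at chr9:12693135-12693434, GPNMB at chr7:23246525-23246824 and MC1R at chr16:89918612-89918911.
TYR: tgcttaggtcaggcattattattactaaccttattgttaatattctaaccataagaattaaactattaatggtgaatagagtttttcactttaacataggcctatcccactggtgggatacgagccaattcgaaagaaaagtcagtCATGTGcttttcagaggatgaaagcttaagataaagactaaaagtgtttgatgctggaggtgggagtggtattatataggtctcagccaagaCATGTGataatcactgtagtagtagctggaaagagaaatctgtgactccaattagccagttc
TYRP1: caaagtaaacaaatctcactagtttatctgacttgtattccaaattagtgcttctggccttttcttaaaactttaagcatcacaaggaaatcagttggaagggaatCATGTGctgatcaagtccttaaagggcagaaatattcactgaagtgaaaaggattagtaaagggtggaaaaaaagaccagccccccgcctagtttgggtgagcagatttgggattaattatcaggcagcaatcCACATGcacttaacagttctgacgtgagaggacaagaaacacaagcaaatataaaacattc
GPNMB: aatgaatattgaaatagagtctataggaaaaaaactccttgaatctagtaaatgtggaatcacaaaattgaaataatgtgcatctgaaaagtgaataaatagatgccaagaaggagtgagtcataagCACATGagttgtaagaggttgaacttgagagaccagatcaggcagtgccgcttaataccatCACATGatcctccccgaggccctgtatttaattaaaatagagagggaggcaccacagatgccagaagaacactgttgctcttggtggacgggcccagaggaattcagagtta
MC1R: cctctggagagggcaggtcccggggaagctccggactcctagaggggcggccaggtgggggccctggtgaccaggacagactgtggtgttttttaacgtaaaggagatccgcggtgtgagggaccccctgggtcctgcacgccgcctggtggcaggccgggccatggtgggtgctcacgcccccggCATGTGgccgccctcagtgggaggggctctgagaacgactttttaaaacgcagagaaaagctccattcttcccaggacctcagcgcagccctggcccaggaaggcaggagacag
All 4 windows held at least 1 such match, the near-silent TYR and TYRP1 (2 each) as well as the expressed GPNMB (2) and MC1R (1). Of the 22 symbols, 19 matched the RefSeq table, with 37 promoters. A match was present in 7 of the 10 expressed and in 7 of the 9 symbols that were not, beside 20.89% of the 27305 symbols of the RefSeq table. Symbols with several promoters have more windows in which a match can fall. Per window, a match was present in 17.62% of all 35116 promoters of the same length (CACGTG in 7.256%, CATGTG in 11.1%, neither of which contains the other). Over the 37 promoters of the list it was 43.24%. Some of these windows overlap, and the same CATGTG of HPS4 was counted in 2 of them. A match is a description of letters and not a bound site.

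Genes used clinically or experimentally to mark melanoma were mostly high. TNC, the matrix glycoprotein tenascin C, had 1251, 1279 and 1226 CPM, and CSPG4, the melanoma-associated chondroitin sulfate proteoglycan, had 971, 1045 and 988 CPM. MCAM, the adhesion molecule CD146, had 206, 211 and 209.8 CPM. MIA, a small secreted protein measured in the blood of patients with melanoma, had 194, 189 and 198 CPM and led the list per length at 975 ± 23.5 TPM. The cancer-testis antigen PRAME had 182, 178 and 180.0 CPM and the calcium-binding protein S100B had 29.6, 31.8 and 31.7 CPM. NES, nestin, had 192, 205 and 187 CPM. Of the 14 markers 13 were expressed (92.9%, beside 63.2% of all protein-coding symbols), all except TYR, and their median was 64.9 CPM. SAMMSON, 1 of the 14, is a long noncoding RNA, a class with 12.7% of symbols expressed. Per length the lowest expressed protein-coding members were L1CAM at 13.2 and SPP1 at 2.77 TPM. So the surface and secreted markers were present in libraries in which the pigment antigens PMEL and MLANA were under 1 CPM on average. With the median transcript length MIA was 474, TNC 1047 and CSPG4 135 TPM, so TNC then led.

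The genes of the neural crest-like state were mixed. Per length S100A4 led the list at 393 TPM, then ERBB3 at 346 TPM. ERBB3, the neuregulin receptor, had 650.0, 642 and 637 CPM, and SLITRK6, a neuronal transmembrane protein, had 70.2, 71.2 and 63.4 CPM. RXRG, a retinoid receptor linked to that state, had 13.03, 13.99 and 14.99 CPM. NGFR, the nerve growth factor receptor CD271 by which the state is often sorted, had only 7.43, 9.71 and 8.29 CPM, and AQP1, a water channel, had 2.25, 1.73 and 1.25 CPM. GFRA2 and GFRA3, co-receptors for ligands of the GDNF family, were at or near 0, with 1.57, 0 and 1.00 counts and with 2.00, 0 and 1.00 counts. GDNF itself had 9.51, 11.1 and 11.1 CPM. In all, 12 of 15 were expressed (80.0%, beside 63.2% of all protein-coding symbols).

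Of the invasive and undifferentiated set 21 of 23 genes were expressed (91.3%, beside 63.2% of all protein-coding symbols). Their median was 59.1 CPM, against 7.78 CPM over all protein-coding genes. VIM led per length at 3116 ± 17.4 TPM, then TNC at 522 ± 11.6, the hyaluronan receptor gene CD44 at 231 ± 3.701 and AXL at 176 ± 4.05 TPM. AXL was 5.84 ± 0.211 times MITF per length, and above it in all 3 libraries; the ratio was 3.10 with the median transcript length. NT5E, the ecto-enzyme CD73, had 172, 177 and 175 CPM, the AP-1 subunit gene FOSL1 had 58.04, 63.2 and 59.6 CPM and CDH2, N-cadherin, had 154, 158 and 151 CPM. WNT5A, a ligand of noncanonical Wnt signalling, had 73.1, 71.4 and 72.1 CPM. CYR61 and CTGF, targets of the coactivator YAP, had 31.4, 29.9 and 32.1 CPM and 13.04, 13.6 and 12.96 CPM. SOX9 was among the exceptions.

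All 7 transcription factors of the epithelial-mesenchymal transition were expressed, beside 63.2% of all protein-coding symbols. PRRX1 was the highest at 206, 188 and 196 CPM, or 146 ± 6.901 TPM. ZEB1 and ZEB2, which take opposite places in some accounts of melanoma states, had 71.3, 69.99 and 69.02 CPM and 70.6, 69.3 and 76.6 CPM, and per length ZEB2 was 0.673 ± 0.0451 of ZEB1. TWIST1 had 21.95, 23.2 and 23.9 CPM, SNAI1 13.2, 15.3 and 14.7 CPM, SNAI2 2.55, 2.96 and 2.83 CPM and TWIST2 1.96, 1.77 and 1.88 CPM. Per length ZEB1 was 11.4 ± 1.03 times SNAI2, or 40.7 times with the median transcript length. CDH1, E-cadherin, the adhesion gene these factors repress in other cells, had no count in any library.

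Of 30 genes of the MAPK pathway, its feedback and melanoma drivers, 29 were expressed (96.7%, beside 63.2% of all protein-coding symbols). Their median was 119.7 CPM. BRAF, the mutated kinase, had itself only 20.3, 21.7 and 22.3 CPM, and NRAS had 128, 129.5 and 127 CPM. Transcripts that ERK signalling induces were plentiful. PHLDA1 had 815, 878 and 830.1 CPM, and the feedback inhibitors SPRY4 and SPRY2 had 484, 524 and 485 CPM and 241, 265 and 259 CPM. The ERK phosphatases DUSP6 and DUSP4 had 268, 277 and 267 CPM and 267, 289 and 269 CPM. The ETS factors ETV4, ETV1 and ETV5, also outputs of the pathway, had 138 ± 1.702, 150.1 ± 5.11 and 87.9 ± 2.62 CPM. Among cell cycle genes, CCND1, cyclin D1, had 340.0, 372 and 364 CPM and its partner CDK4 had 229.7, 217 and 219 CPM. Per length CDK4, PHLDA1, SPRY2 and SPRY4 led the list at 340.5 ± 11.6, 332 ± 12.5, 300.2 ± 13.8 and 296 ± 13.6 TPM, against 7.13 ± 0.307 TPM for BRAF. With the median transcript length CCND1 led at 714 TPM.

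The tumour suppressor locus on chromosome 9 was uneven. CDKN2A, which encodes p16 and ARF, had 3.01, 3.74 and 3.11 CPM, while its neighbour CDKN2B, which encodes p15, had a single count in the 3 libraries. MTAP, the metabolic gene beside them, had 267, 279 and 278 CPM and was 14.3 ± 1.41 times CDKN2A per length, or 62.97 times with the median transcript length. TERT, the telomerase catalytic subunit, was low but present at 2.64, 2.72 and 2.19 CPM. CDKN2B was the only one of the 30 genes in the list that was not expressed.

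Of 58 receptor tyrosine kinases, 34 were expressed (58.6%, beside 63.2% of all protein-coding symbols). Of the rest, 22 lay below the threshold with some counts and FLT3 and MUSK had none. ERBB3 led at 346 ± 4.86 TPM, followed by AXL at 176 ± 4.05, EPHA3 at 149 ± 7.44, EPHA2 at 111 ± 2.83, DDR2 at 90.1 ± 1.94 and MET at 75.5 ± 1.84 TPM, none of which overlapped the next. MET and IGF1R, the receptors of hepatocyte growth factor and of insulin-like growth factors, did overlap. The median transcript length moved this order strongly: ERBB3 stood at 1249, IGF1R at 557, MET at 229, EPHA2 at 184, DDR2 at 173, AXL at 114 and EPHA3 at 98.3 TPM. ERBB3 led under both, and 8 of the 10 highest were shared.

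In counts, DDR2, a receptor for collagen, had 293, 288 and 282 CPM, IGF1R 282, 299 and 280.3 CPM, EPHA3 286, 261 and 268 CPM and AXL 255, 268 and 263 CPM. EGFR was low at 26.3, 25.4 and 24.3 CPM. ERBB3 was 42.1 ± 1.26 times EGFR per length, or 99.1 times with the median transcript length. ERBB3 has little kinase activity of its own and signals through partners. Of these, ERBB2 was at 37.3 TPM and ERBB4 at 0.425 ± 0.0491 TPM. KIT, the stem cell factor receptor that melanocytes need, had 0.127, 0.188 and 0.202 CPM, or 4 to 7 counts, and its ligand gene KITLG had 0.819, 0.719 and 0.3704 CPM. PDGFRB, often raised in resistant melanoma, had 11.6, 11.5 and 10.05 CPM.

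**Figure D4:**
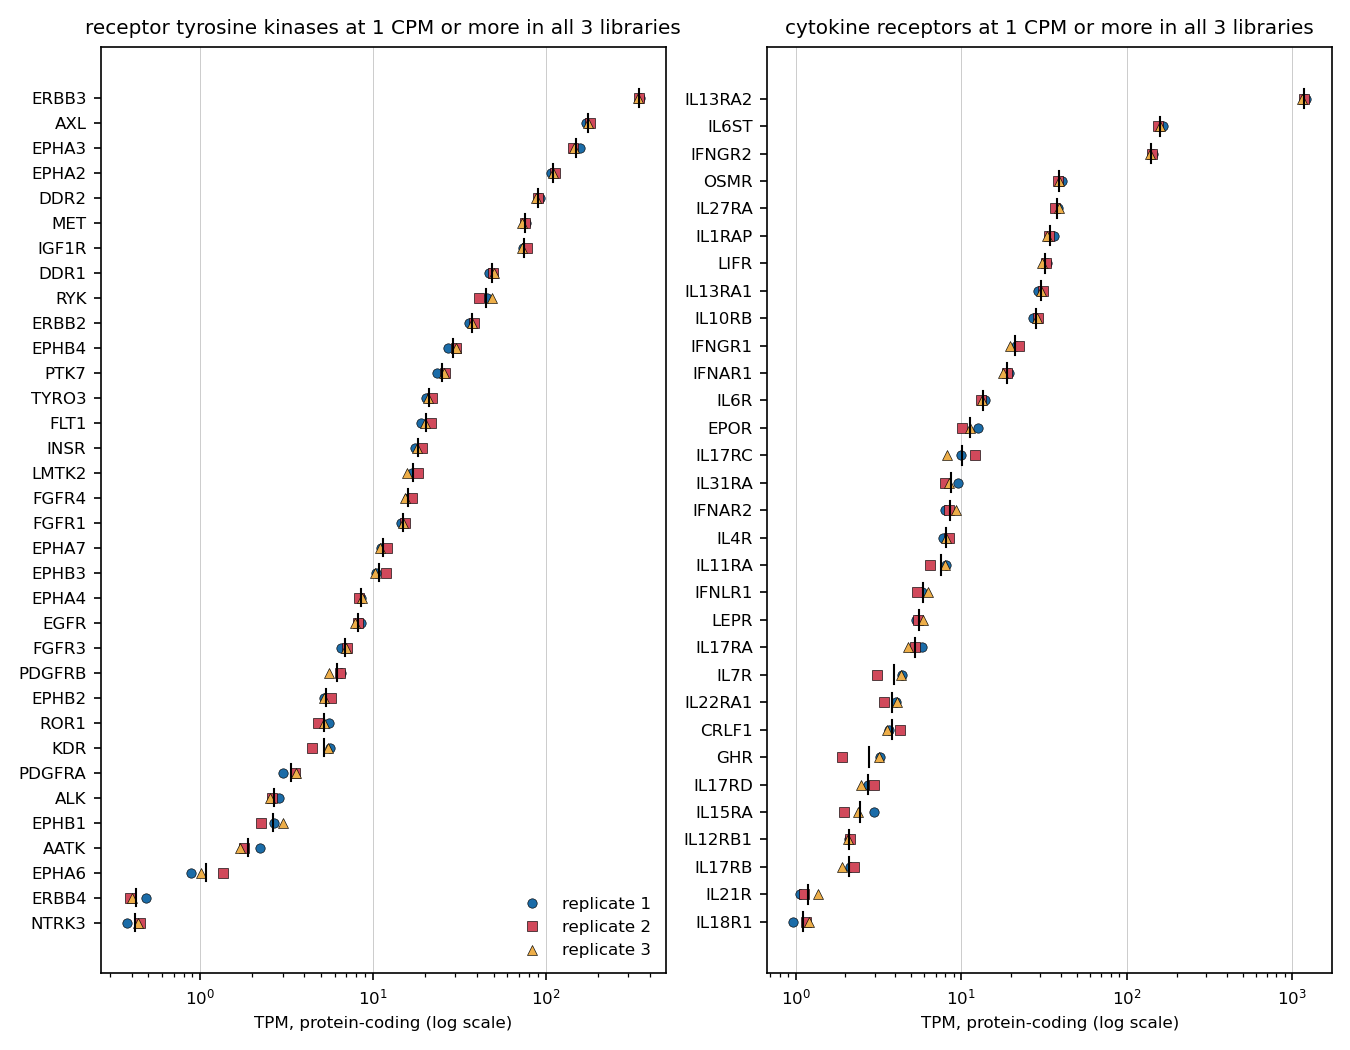
TPM (log scale, horizontal axes) of the 34 receptor tyrosine kinases and 31 cytokine receptors that were expressed, 1 symbol for each of the 3 libraries and a vertical bar at the mean. ERBB3 leads the left panel at 346 TPM, and IL13RA2 leads the right panel at 1174 TPM, above IL6ST at 159 TPM, on the longest transcript length.

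Among 51 cytokine receptor genes, 31 were expressed (60.8%, beside 63.2% of all protein-coding symbols). IL13RA2, a receptor that binds interleukin 13 but lacks the signalling tail of its relative and is studied as a tumour target, had 568, 553 and 535 CPM, or 1174 ± 39.4 TPM. IL13RA1, the signalling chain, had 36.9, 39.8 and 38.8 CPM, and IL13RA2 was 38.7 ± 2.43 times it per length, or 11.5 times with the median transcript length. IL6ST, gp130, the shared signal chain of the interleukin 6 family, had 469.5, 436 and 452 CPM. Its partners LIFR and OSMR had 104, 103 and 97.7 CPM and 70.4, 66.4 and 67.6 CPM and IL6R had 25.8, 24.4 and 24.9 CPM. With the median transcript length IL6ST, at 825 TPM, led and IL13RA2 was at 449 TPM. IFNGR2 had 99.5, 98.7 and 96.3 CPM. IL1R2, CNTFR, CSF2RB and CRLF2 had no count.

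Of the tumour necrosis factor receptor family 18 of 27 genes were expressed (66.7%, beside 63.2% of all protein-coding symbols). Per length TNFRSF12A, the receptor of TWEAK, led at 180 TPM, then TNFRSF1A, the main receptor of tumour necrosis factor, at 161 TPM. In counts they had 91.1, 95.5 and 98.4 CPM and 114, 112 and 112 CPM. TNFRSF19, a family member known from stem and progenitor cells, had 109, 110.0 and 111 CPM. The death receptor FAS had 5.48, 6.58 and 5.25 CPM, and TNFRSF10B, a receptor of TRAIL, had 79.8 ± 3.56 CPM. TNFRSF18 and TNFRSF13B, receptors of lymphocytes, had none. Of 14 receptors of the TGF-beta family 12 were expressed (85.7%). TGFBR2 had 57.8, 61.3 and 60.96 CPM, TGFBR1 46.9, 46.4 and 47.4 CPM and the co-receptor ENG 42.4, 44.4 and 41.5 CPM. AMHR2, the receptor of anti-Müllerian hormone, had no count.

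The chemokine receptors had the smallest expressed share of the receptor lists read here, 4.55%, beside 63.2% of all protein-coding symbols. Of 22 genes, only CXCR6 was expressed, at 1.74, 2.24 and 2.18 CPM. CXCR1, CXCR4, CCR2, CCR7, CCR8 and XCR1 had no count in any library, which allows a level of up to 0.0323 CPM each. CCR10 reached 1.42, 0.877 and 1.51 CPM. It passed the threshold of 1 CPM in 1 of the recounts of this list, the one that left out replicate 2. CXCR4 is the chemokine receptor most often described in metastasis. In a list of 21 other receptors described in melanocytes, 20 had a row under the listed symbol and 14 of these were expressed (70.0%). They are G protein-coupled receptors except P2RX7, an ATP-gated ion channel, at 2.73 ± 0.338 CPM. F2R, the thrombin receptor, had 78.7, 78.3 and 77.6 CPM, EDNRB, the endothelin receptor of the melanocyte lineage, had 73.5, 67.8 and 71.4 CPM and S1PR2, a sphingosine phosphate receptor, had 42.9, 44.1 and 44.2 CPM.

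Of 26 integrin genes, which encode receptors for matrix, 17 were expressed (65.4%, beside 63.2% of all protein-coding symbols) and none was at 0 in all 3 libraries. ITGB1, the common beta subunit, had 566, 551 and 554 CPM, and ITGB3, the subunit that marks the move from radial to vertical growth of melanoma, had 586, 591 and 578 CPM. Per length they did not differ beyond their spread, at 469 ± 8.44 and 466 ± 6.21 TPM. With the median transcript length ITGB1 was 1092 and ITGB3 391 TPM. The laminin receptor subunits ITGA6 and ITGA3 had 512, 491 and 493 CPM and 269, 269 and 270.5 CPM. ITGAV, the partner of ITGB3, had 157, 152 and 158 CPM, and ITGA4 had 75.1, 72.6 and 72.6 CPM. Of the subunits known from leukocytes, ITGAX had 1.23 ± 0.112, ITGB2 0.302 ± 0.131 and ITGAE 0.01203 ± 0.0208 CPM. Of those known from epithelia, ITGB4 had 16.6 ± 1.26 and ITGB6 0.0307 ± 0.0317 CPM.

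Most cytokine genes were silent, and a few were among the higher genes of the cell. Of 62 interleukins and haematopoietic cytokines, 15 were expressed (24.2%, beside 63.2% of all protein-coding symbols) and 21 had no count. Over all protein-coding symbols 12.2% had no count. IL24, also known as MDA-7, a cytokine of the interleukin 10 family first described in melanoma cells, had 491, 485 and 517 CPM, or 871 ± 27.4 TPM. MIF, a cytokine made by most cells, had 166, 169 and 186 CPM, or 589.7 ± 35.1 TPM. LIF, a gp130 ligand, had 44.9, 50.6 and 43.9 CPM, and IL11, another, had 10.8, 11.9 and 11.7 CPM. IL1A had 8.35, 8.58 and 9.45 CPM and IL1B 0.773, 0.522 and 1.07 CPM. IL6 had 1 count in the 3 libraries together, TNF 0, 3 and 2 counts and CSF2 a single count. IL2, IL4, IFNG, IFNB1, IL17A, IL22 and IL33 were among those without any.

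Of 38 chemokines, 7 were expressed (18.4%, beside 63.2% of all protein-coding symbols) and 20 had no count. The median of the list was thus 0 CPM. CXCL8, the neutrophil attractant interleukin 8, had 31.9, 31.4 and 34.9 CPM, CXCL1 had 9.22, 8.25 and 8.99 CPM and the mucosal chemokine CCL28 had 11.7, 11.2 and 11.6 CPM. CCL2, the monocyte attractant, had 1.39, 1.05 and 0.979 CPM, and CCL5 1.03, 0.644 and 0.837 CPM. The interferon-induced chemokine CXCL10 had 0.180 ± 0.0888 CPM, and CXCL9 and CXCL12 had none. CXCL8 led per length at 61.1 ± 3.39 TPM.

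Of 58 growth factor genes 35 were expressed (60.3%, beside 63.2% of all protein-coding symbols), with a median of 2.42 CPM over the list. HDGF, hepatoma-derived growth factor, a nuclear and secreted protein, had 471, 466 and 470.3 CPM. INHBA, the subunit of activin A, had 580.3, 629 and 607 CPM, and TGFA, a ligand of EGFR, had 369, 385 and 387 CPM. The progranulin gene GRN and the midkine gene MDK had 126 ± 1.49 and 39.2 ± 1.205 CPM. NRG4 and NTF3 had no count. IGF1 and IGF2, ligands of IGF1R, had 2 and 3 counts in all.

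Ligands and receptors were set side by side to show which pairs were present together; the pairs were picked after their values had been seen. INHBA stood at 318 ± 11.97 TPM, with its receptors ACVR2B at 18.6 ± 0.722, ACVR1B at 16.6 ± 0.488 and ACVR2A at 7.76 ± 0.747 TPM. HGF stood at 13.9 ± 0.517 TPM with MET at 75.5 ± 1.84 TPM, and LIF at 37.3 ± 2.85 TPM with LIFR at 32.1 ± 1.17 TPM. For AXL, the ligand genes GAS6 and PROS1 stood at 8.86 ± 0.888 and 15.1 ± 1.04 TPM. All of these genes were expressed, so ligand and receptor were present in the same libraries.

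Other pairs were as follows. TGFA stood at 281 ± 6.37 TPM and EGFR at 8.22 ± 0.358 TPM. ERBB3 at 346 ± 4.86 TPM had as ligand genes NRG1 at 0.929 ± 0.151 and NRG2 at 5.92 ± 0.443 TPM. For IL24 the receptor chain IL22RA1 was at 3.85 ± 0.366 TPM, while IL20RA had 1 count in all and IL20RB had 0, 0 and 15.7 counts. Every IL20RB count thus came from replicate 3. EDNRB at 50.5 ± 2.17 TPM was accompanied by EDN1 and EDN3 at 0.244 ± 0.183 and 0.0531 ± 0.0576 TPM, and MC1R at 12.7 ± 1.07 TPM by POMC at 0.0280 ± 0.0485 TPM. CXCL8 had no CXCR1 count beside it. WNT5A stood at 37.2 ± 0.546 TPM with RYK at 45.2 ± 3.82, ROR1 at 5.19 ± 0.359 and ROR2 at 0.1097 ± 0.0765 TPM.

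Markers of other cell types, in 15 lists, were read to see what else the libraries could hold. None of the 9 lymphocyte, 7 erythroid, 6 pancreas and gut, 4 lung or 4 kidney markers was expressed. Over all protein-coding symbols the expressed share was 63.2%. Summed over the list, lymphocyte markers came to 2.41 to 2.67 CPM and erythroid markers to 0.232 to 0.476 CPM. The leukocyte gene PTPRC had 0.0969, 0.283 and 0.212 CPM, and CD3D, MS4A1, AIF1, TYROBP, HBB, HBA2, ALB, FGB, INS, MYOD1 and DES had no count. In the fibroblast list 3 of 10 were expressed: PDGFRB at 11.1 ± 0.875, PDGFRA at 6.94 ± 0.651 and the matrix gene LUM at 4.08 ± 0.905 CPM, with COL1A2 and COL3A1 at 0.106 ± 0.0431 and 0.04999 ± 0.0449 CPM. In the endothelial list 2 of 7 were expressed, the receptor gene KDR at 9.86 ± 1.22 and PECAM1 at 1.105 ± 0.0899 CPM, and CDH5 had 0.177 ± 0.0744 CPM.

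**Figure D5:**
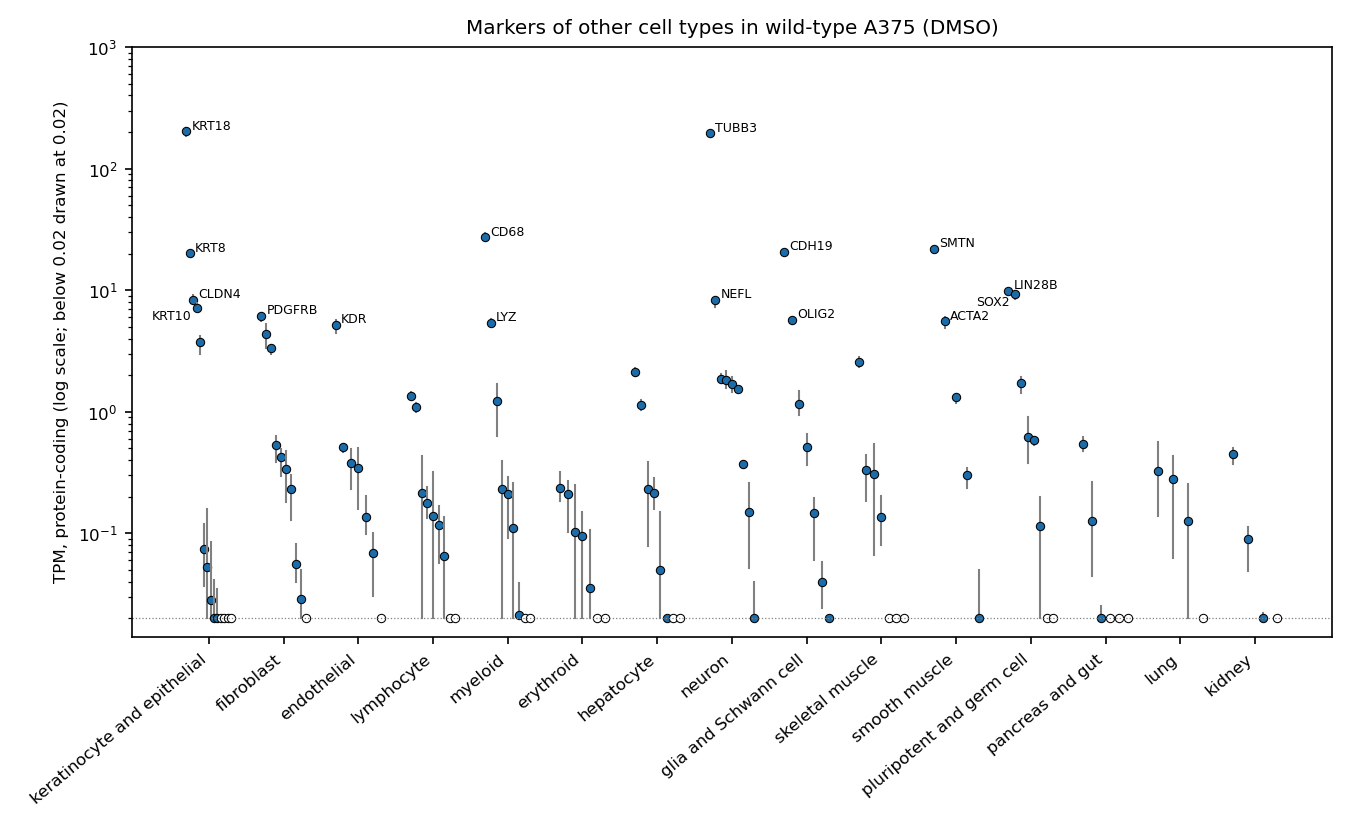
TPM (log scale, vertical axis) of markers of 15 other cell types; points are means over the 3 libraries, grey lines run from the lowest to the highest library, open circles on the dotted line have no count, and genes of at least 5 TPM are named. Of the genes drawn, KRT18 and TUBB3 exceed 100 TPM, while every lymphocyte and erythroid marker lies under 2 TPM.

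Some markers were nonetheless expressed, at unequal levels. The median over expressed protein-coding genes was 26.4 CPM. CDH19, a cadherin of Schwann cells and neural crest, had 41.9, 41.1 and 41.04 CPM. OLIG2, a factor of the oligodendrocyte lineage, had 6.05, 6.103 and 5.41 CPM, while MBP had 0.116, 0.0753 and 0.179 CPM and GFAP 1.05 ± 0.299 CPM. Of the 9 glial and Schwann cell markers 4 were expressed (44.4%, beside 63.2% of all protein-coding symbols). TUBB3, a neuronal tubulin that many tumour lines express, had 113, 124 and 126 CPM, and NEFL had 11.3, 11.2 and 9.37 CPM. SOX10 and CDH19 are shared by melanocytes and Schwann cells as derivatives of the neural crest.

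KRT18 and KRT8, the keratin pair of simple epithelia, had 120.4, 135 and 142 CPM and 17.1, 18.95 and 18.4 CPM, whereas KRT19, KRT1, TP63 and CDH1 had no count. CLDN4, a tight junction gene, and the keratins KRT10 and KRT14 had 10.9 ± 0.912, 4.798 ± 0.439 and 1.97 ± 0.356 CPM. In all 5 of 14 keratinocyte and epithelial markers were expressed. CD68, a lysosomal protein used as a macrophage marker, had 15.7, 15.1 and 17.6 CPM, and LYZ, lysozyme, had 2.77, 2.43 and 2.59 CPM. They were the 2 expressed of 9 myeloid markers. SMTN, smoothelin, had 33.8, 35.2 and 36.04 CPM. LIN28B, an RNA-binding protein of embryonic and germ cells that blocks let-7 maturation, had 17.3, 17.3 and 16.7 CPM, while its relative LIN28A had 0.7398 ± 0.0635 CPM and DAZL and DDX4 had no count. The lists of these other cell types had these expressed members: 3 of 5 for smooth muscle, 1 of 7 for skeletal muscle, 1 of 8 for hepatocytes, 3 of 8 for pluripotent and germ cells, and 6 of 9 for neurons.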

How the data were processed

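RNA depleted of ribosomal RNA was made into directional libraries, per the labels' protocols. The submitters' processing notes name Trim Galore, cutadapt, FastQC, MultiQC, kallisto and DESeq2 and the build GRCh38.p10, with no role or order. The authors deposited estimated counts per gene symbol, which need not be whole, and a normalized signal, which was used only as an alternative. Whether the counting used the strand is not given in the sources used here, so overlapping, antisense and near-identical genes are uncertain.

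Columns were assigned to samples by name. Testing had been laid out for counts of any kind, and no test was run. CPM were computed on the unrounded estimated counts over all 56609 rows. Gene types, positions and lengths came from GENCODE release 29 by symbol: 54916 matched, 320 matched by an older symbol through RefSeq synonyms and 1373 did not match (0.320% of the counts). Neighbours in an order were said not to differ where their ranges over the 3 libraries overlapped. The genes named were drawn from the 15 with the most counts, the 15 protein-coding genes highest per kilobase, and 35 lists. From each list the rule took the up to 6 highest, those without a count and defining members. Not every gene under that rule is named. Among those left out are RPL13A, EEF2, NPM1, BLOC1S1, IL27RA, IL1RAP, TNFRSF21, LTBR, ITGB5, ITGA1 and many members without a count. Others, chosen after their values were seen, include PRKDC, AKAP12, SLC26A2, PSMA5 and the remaining genes outside that rule. The part of the series described and the lists were chosen with earlier results of these data known. Depth was 30923230 ± 4062220 counts per library. A count of 3 in 1 library equals 0.0867 to 0.113 CPM, and it covers counting error only. Scripts were tested on simulated data. Values of some listed genes are not reported here and not drawn. The alternatives were TMM factors (edgeR 4.0.16), DESeq2 1.42.0 size factors, a total without 4 abundant RNAs, other thresholds, the median transcript length, the deposited signal and each library left out. Python 3.11.15 and R 4.3.3 were used.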

Additional observations from a re-analysis of the deposited data

How the results depend on the processing

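The share of counts by gene type rested on 4 RNAs. With RN7SK, RN7SL1, RN7SL2 and RMRP left out of the total, protein-coding genes held 94.3% of the counts, structured noncoding RNAs 1.20% and long noncoding RNAs 3.43%. The number of expressed genes ran from 12439 (protein-coding genes only, a part of the 15185 reported) to 17575 (0.5 CPM in all 3 libraries). That was over 10 alternatives, each within 1.5 times the number reported. Of 210 recounts of list members, 205 stayed within that limit, and no list lost more than 4 or gained more than 2 members. Leaving out a library could only keep or add members, since a gene must reach 1 CPM in every library counted. Leaving the 4 RNAs out of the total raised every other level. In neither setting could a gene other than the 4 RNAs be lost, and the same holds for the number of expressed genes. The loss of 4, from 15 to 11, was that of the small structured RNAs, and was fixed in advance, because the 4 RNAs left out are members. The 5 recounts beyond the limit were chemokine receptors without replicate 2 (2 expressed), endothelial markers with TMM or DESeq2 factors (1 each), and lymphocyte markers with the 4 RNAs left out (2) or without replicate 2 (1). For 20 genes recomputed, levels were 94.1% to 94.4% of the reported value with TMM factors, 93.1% to 93.4% with DESeq2 size factors, 110.5% to 110.6% without the 4 RNAs, 92.8% to 117.7% in the authors' deposited signal, and 84.99% to 123.4% with a library left out. With the median transcript length, 8 of the 10 highest receptor tyrosine kinases, 7 cytokine receptors, 9 integrins and 8 growth factors were shared with the main order. No paired analysis was possible because the result comes from no test. Depth limits the lowest levels: a gene without a count may lie anywhere up to the 0.0323 CPM of the floor, and genes of a few counts, such as TYR and IL6, cannot be ordered.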

Other observations

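Of the 382 symbols of antigen receptor segments, which are rearranged in lymphocytes, none was expressed, and together they held 0.000343% of the counts. The highest was IGLV5-52 at 0.664, 0.377 and 0.954 CPM.

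The rows of small structured RNAs differed widely in counts. SCARNA2, a guide RNA of Cajal bodies, and SNORA73B stood beside RNU4-1, while the spliceosomal RNU6-1 had 0.752 CPM and the vault RNA VTRNA1-1 0.0971 CPM on average. These are levels of single rows, and how reads were divided among related rows was not tested. A row named U2, which matched no annotated symbol, had 855 ± 91.8 CPM, beside 85.4 ± 9.18 CPM for RNU2-1. A low row is thus not shown to be a scarce RNA. Of 442 small nucleolar and Cajal body RNA symbols, 73 were expressed, with 0.294% ± 0.00468 of the counts (SD, n = 3).

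Besides PSMA5, the genes of at least 10 CPM with the widest spread over the 3 libraries were TMEM63B, with 21.0, 22.6 and 10.7 CPM, the processed pseudogene AC116533.1, with 48.7, 44.7 and 22.9 CPM, and C15orf52, with 25.7, 42.7 and 23.3 CPM. In all, 20 of 9681 such genes had a coefficient of variation of 25% or more. Their counts are estimates divided among transcripts, and the part of that division in this spread was not tested.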
